A study of Mus musculus and Homo sapiens with 12 samples.

Results

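The genes described here are 10 transcription factors of the pluripotency network, *Pou5f1*, *Sox2*, *Nanog*, *Klf4*, *Esrrb*, *Zfp42*, *Tfcp2l1*, *Prdm14*, *Tbx3* and *Sall4*, found by identifier among the 54446 gene identifiers of the mouse count files. Their 10 human counterparts, found by the same symbols in capitals among 58676 identifiers, served as a contrast. The list was given by name, and no measured value entered its rule. Earlier results of these data were known when it was chosen. Pluripotency is the capacity of early embryonic cells to form every tissue of the body. It is held by a small set of transcription factors that bind together at enhancers and activate their own and each other's genes. *Pou5f1* (OCT4), *Sox2* and *Nanog* form the centre of this network, while *Klf4*, *Esrrb*, *Tfcp2l1*, *Tbx3* and *Prdm14* hold the naive state of mouse embryonic stem cells, and most of these genes are shut in differentiated cells.

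Chromatin-associated RNA (caRNA), the RNA that stays with the chromatin fraction, was fragmented and sequenced either directly (Input) or after pull-down with an antibody against 5-methylcytosine (m5C, the IP libraries). Wild-type mouse embryonic stem cells (mESC) gave 3 Input and 3 IP libraries, and wild-type K562 cells, an established human leukaemia line, gave 3 of each. The mESC were grown in serum with LIF, the GSK3 inhibitor CHIR99021 and the MEK inhibitor PD0325901, and were passaged off feeder cells before use, and the labels list puromycin in the K562 medium. Titles gave the groups, because the antibody label named no antibody for any mESC library and the m5C antibody for every K562 library. The study calls its replicates biological, but nothing in the labels ties the 3 libraries of a group to separate cultures, so p-values measure the spread between libraries, part of which may be technical. Cell line and species cannot be told apart.

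Gene counts ran from 29007088 to 34752646 in the mESC Input libraries but only from 473398 to 592324 in mESC IP, and from 10477119 to 11865285 in K562 Input against 93110 to 111286 in K562 IP. Levels are given as CPM (gene counts scaled to a common library total) and, between genes, as RPKM (CPM per kilobase of gene span not shared with another gene on the same strand), because reads in introns were counted. That the span was counted was read from the files. Of 241 mouse protein-coding genes lying wholly inside another gene on the same strand with no exon base in common, 240 had 0 Input counts, against 20.3% of genes with no overlapping gene. K562 Input replicate 1 differed over genes from replicate 2 (chi-square per degree of freedom 0.912, p = 1) and from replicate 3 (0.918, p = 1) by less than sampling noise. Between replicates 2 and 3 it was 1.03 over 17881 genes, beyond sampling noise. Over bins of GC content every pair differed beyond that noise (20.96 to 98.4), and the libraries were kept apart.

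*Sox2* had 0 counts in all 6 mESC libraries, and *SOX2* had 0 in all 6 K562 libraries. *Sox2* (chr3:34650405-34652461, plus strand, GRCm38) lies wholly inside the span of the long noncoding RNA gene *Sox2ot* (chr3:34104270-34682619, plus strand), and *SOX2* lies likewise inside *SOX2-OT*. With such counting a read from *Sox2* falls in both genes and is dropped, so the 0 does not measure *Sox2* RNA, and the gene entered no test. The results below therefore concern the other 9 factors. All 9 passed the filter on low counts in mESC.

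These 9 genes were clearly present in mESC chromatin RNA, and the wild-type cells carried the labelled identity. Their summed Input level was 2443 to 2477 CPM over the 3 libraries. The 20 further genes of the naive network, such as *Rif1* and *Dppa4*, summed to 3524 to 3546 CPM, with none at 0. In contrast, 12 regulators of early lineages (*Gata6*, *Sox17*, *Cdx2* and others) summed to 15.6 to 18.7 CPM, 10 markers of fibroblasts, the usual feeder cells, to 60.0 to 61.2 CPM with *Lum* and *S100a4* at 0, and 9 erythroid genes to 2.91 to 3.65 CPM. Genes of the primed or formative state (8 genes, among them *Otx2* and *Dnmt3b*) summed to 188 to 190 CPM. The part of these other cells in the values below was not tested.

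Per length, the zinc-finger gene *Zfp42* (REX1), a standard marker of undifferentiated cells, was highest in mESC Input at 25.9 ± 0.497 RPKM (SD, n = 3). *Nanog*, the homeobox factor of the core, followed at 23.6 ± 1.157 RPKM and *Pou5f1*, the POU-domain factor, at 15.7 ± 0.717 RPKM. *Tbx3*, a T-box factor, at 13.2 ± 0.202 RPKM and *Tfcp2l1*, a grainyhead-family factor, at 12.9 ± 0.117 RPKM overlapped between libraries and could not be ordered. Every other neighbour in the order was separated by the ranges of its 3 libraries. *Klf4*, a Krüppel-like factor, came next at 11.5 ± 0.176 RPKM, and the zinc-finger factor *Sall4* at 5.71 ± 0.186 RPKM. *Esrrb*, an orphan nuclear receptor, lay at 4.94 ± 0.0189 RPKM and *Prdm14*, which represses differentiation genes and DNA methylation, at 1.97 ± 0.0505 RPKM. Among 18552 protein-coding genes with Input counts, *Zfp42* stood at percentile 99.5 and *Prdm14* at percentile 74.4.

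The order by raw share was different, since these genes vary widely in length. *Esrrb* (chr12:86361117-86521628) spans 160512 bases, of which 3.77% are exonic, and took the largest share of Input counts among the 9, at 793 ± 3.03 CPM (SD, n = 3). *Tfcp2l1* (chr1:118627945-118685168) spans 57224 bases and took 736 ± 6.68 CPM. *Pou5f1* (chr17:35506018-35510772) spans 4755 bases, 47.3% of them exonic, and took 74.6 ± 3.41 CPM. How the counts of a gene divide between its exons and introns is not given by the files.

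The first comparison asked whether pull-down with the m5C antibody raised or lowered the share of each factor's RNA in mESC. All 9 were lower in IP than in Input (edgeR quasi-likelihood test, Benjamini-Hochberg adjusted p under 0.05), and none was higher. Of all 20244 tested genes, 42.0% were called lower and 39.9% higher. The median log2 IP/Input of the 9 was −2.06, against −0.17 over all tested genes. However, most genes with as much Input RNA behaved alike. Among the 6539 tested genes whose Input level lay within the range of these factors (26.9 to 793 CPM), 90.6% were called lower and the median was −1.69, so the count of 9 of 9 lies near what is common at such levels.

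**Figure D1:**
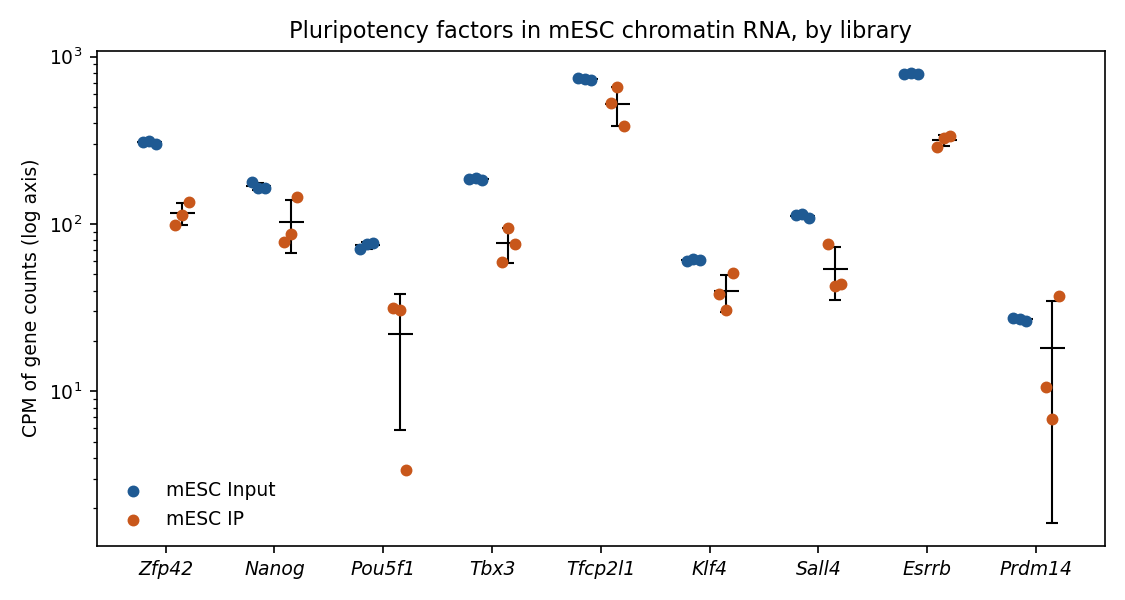
CPM of gene counts (vertical log axis) of 9 factors in each mESC library, in the order of their Input RPKM. Points are libraries (blue Input, orange IP), bars are the mean and SD of 3 libraries; every IP point lies below the Input points except for Prdm14, whose IP replicate 3 lies above them.

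Within the core, *Pou5f1* had 2052, 2518 and 2676 counts in Input replicates 1 to 3 and 15, 18 and 2 counts in IP, that is 70.7, 76.2 and 77.0 CPM against 31.7, 30.6 and 3.38 CPM. All 3 IP values lay below Input, and IP replicate 3 held only 2 counts, under the floor of 3 counts used here. Its log2 IP/Input was −2.79 ± 0.30 (SE, n = 3 against 3, edgeR adjusted p = 2.72e-07), and −2.21 without IP replicate 3. *Nanog* had 178, 164 and 163 CPM in Input and 78.2, 86.7 and 145 CPM in IP, from 37, 51 and 86 counts. Here too the groups did not overlap, with IP replicate 3 nearest to Input, and log2 IP/Input was −1.65 ± 0.15 (SE, edgeR adjusted p = 4.21e-08).

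Among the naive factors, *Esrrb* was measured most precisely in IP. It had 790, 796 and 793 CPM in Input and 287, 326 and 336 CPM in IP, from 136, 192 and 199 counts. The IP values were alike and far below Input, at −2.29 ± 0.07 on the log2 scale (SE, edgeR adjusted p = 1.47e-13). *Tfcp2l1* had a similar Input level (743, 735 and 730 CPM) but kept more of it in IP, with 526, 658 and 385 CPM from 249, 387 and 228 counts. The fit put it at −1.47 ± 0.10 on the log2 scale (SE, edgeR adjusted p = 1.41e-09). As a share of the mean Input CPM, the IP libraries gave 0.362 to 0.424 for *Esrrb* and 0.523 to 0.894 for *Tfcp2l1*, ranges that did not overlap, although the difference between these genes was not tested.

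*Tbx3* had 185, 188 and 182 CPM in Input against 59.1, 95.2 and 76.0 CPM in IP. *Klf4* had 60.0, 61.9 and 61.0 CPM in Input against 38.0, 30.6 and 50.6 CPM in IP, from 18, 18 and 30 counts. Neither overlapped between the groups, and their log2 IP/Input values were −2.22 and −1.58. *Prdm14* was the exception among the factors. It had 27.5, 27.1 and 26.2 CPM in Input and 10.6, 6.80 and 37.1 CPM in IP, from 5, 4 and 22 counts, so that IP replicate 3 lay above all Input libraries. The test still gave −1.50 ± 0.34 (SE, edgeR adjusted p = 0.000715), but with library sizes alone the value was −0.49 (edgeR adjusted p = 0.26), and the call was also lost when any Input library was left out (adjusted p = 0.162 to 0.182). Without IP replicate 3 it was −2.61.

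The zinc-finger genes behaved like the rest. *Zfp42* had 310, 314 and 302 CPM in Input against 99.3, 114 and 135 CPM in IP, at −2.37 ± 0.11 on the log2 scale (SE, edgeR adjusted p = 1.02e-11). *Sall4* had 112, 115 and 108 CPM against 76.0, 42.5 and 43.9 CPM, at −2.06 ± 0.17 (SE, edgeR adjusted p = 1.94e-08). The groups of both genes stood apart, with IP replicate 1 of *Sall4* nearest to Input. Ranked by log2 IP/Input among all tested genes, the 9 factors lay between percentile 4.33 (*Pou5f1*) and percentile 29.2 (*Tfcp2l1*).

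**Figure D2:**
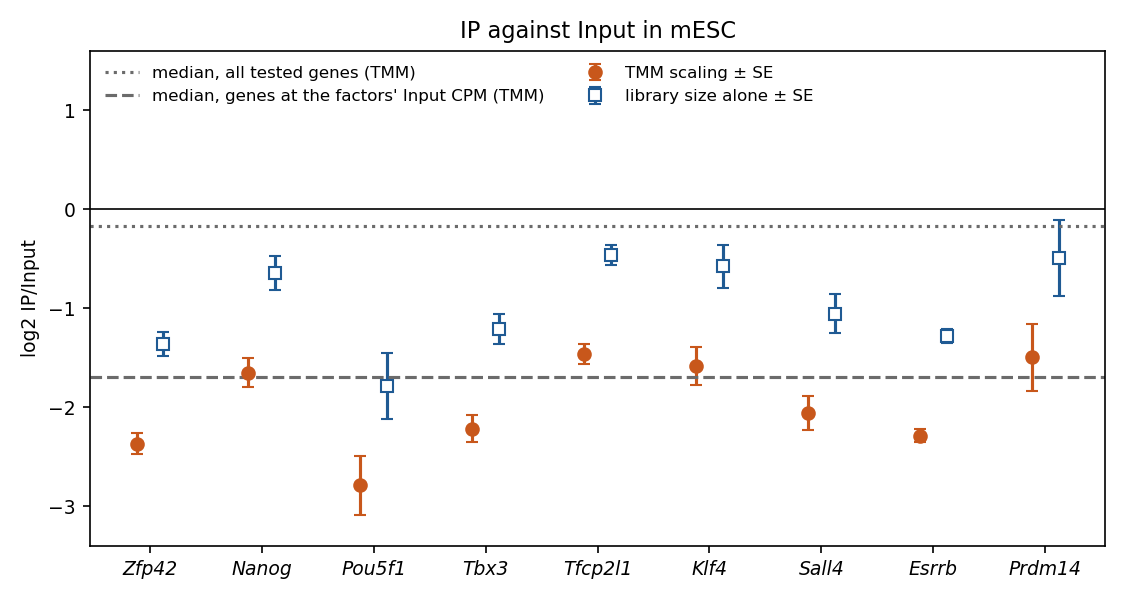
log2 IP/Input (vertical axis) of the 9 factors in mESC from edgeR, with TMM scaling (filled circles) and with library sizes alone (open squares); bars are SE, the dotted line is the median of all tested genes (−0.17) and the dashed line that of the 6539 genes at the same Input levels (−1.69), both with TMM. All points lie below 0, and the TMM points lie on both sides of the dashed line.

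The size of these values depended on the scaling of the IP libraries. With library sizes alone the median of all tested genes moved from −0.17 to 0.83, a shift of 1.01 that moved every factor alike, and the calls became 4738 lower and 10022 higher in place of 8512 lower and 8078 higher. Relative to the median of all tested genes, the factors ranged from −2.62 (*Pou5f1*) to −1.30 (*Tfcp2l1*). When Input counts were thinned to the depth of IP, only 10324 genes passed the filter and the median of all tested genes moved to 0.14. Of the 9, 4 were still called lower, *Pou5f1*, *Esrrb*, *Zfp42* and *Tbx3*. Without any single Input library fewer genes passed the filter, and the factors ranged from −2.13 (*Pou5f1*) to −0.77 (*Tfcp2l1*).

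Log2 IP/Input followed the Input level. Of the 4050 tested genes in the lowest quintile of Input CPM, 4050 fell short of the filter's cutoff (0.676 CPM) in at least 1 Input library, as did 1253 of the 4048 in the next. Such genes entered the test through their IP counts, which fixes a high value, so only the upper quintiles are read. In the quintile from 2.81 to 16.2 CPM the median was −0.17 and 31.7% were called lower. In the next it was −1.28 with 76.0% lower, and in the highest (from 63.0 CPM) −1.84 with 96.1% lower. Of the 9 factors, 7 fell in the highest quintile and *Klf4* and *Prdm14* in the one below it.

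**Figure D3:**
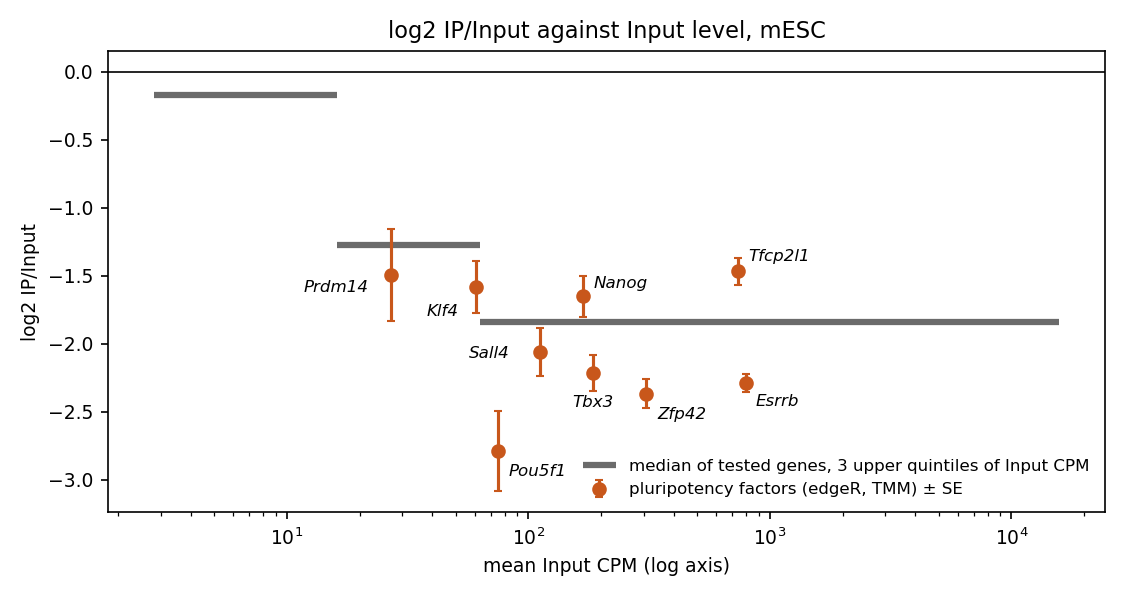
log2 IP/Input in mESC (vertical axis, edgeR with TMM) against mean Input CPM (horizontal log axis). Grey bars are the medians of tested genes in the 3 upper quintiles of Input CPM, falling from −0.17 to −1.84; orange points are the 9 factors with SE, of which Prdm14 and Klf4 lie under the bar of their quintile and the others on both sides of the bar of the highest.

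Other genes of the network and of neighbouring states were read by the same test. It called 42.0% of all tested genes lower, and 90.6% of those at the factors' Input levels. Of 20 naive network genes, 18 were lower and 0 higher, with a median log2 IP/Input of −1.89. *Dppa4*, a chromatin factor of early embryos, had the lowest value (−2.90 ± 0.23), followed by *Rif1*, which controls replication timing (−2.37 ± 0.07). *Gbx2*, a LIF-responsive homeobox gene, had 0.38 ± 0.32 and *Dppa3* −0.92 ± 0.94, and neither passed the test (edgeR adjusted p = 0.283 and 0.368). Of the 6 LIF signalling genes, 5 were called lower, among them *Socs3*, the feedback inhibitor (−2.57 ± 0.34), and *Il6st*, the shared receptor subunit (−1.999 ± 0.12). The LIF receptor *Lifr* had −0.77 ± 0.09, a direction that rests on TMM scaling, since it took 197 ± 3.49 CPM in Input and 227 ± 9.37 CPM in IP. The kinase gene *Jak2* was higher (0.95 ± 0.22, edgeR adjusted p = 0.00104).

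Genes of later states gave other values, but many had too little Input RNA to be read. Of 8 primed or formative genes, 4 were higher and 3 lower, and 2 of those higher fell short of the Input cutoff. *Dnmt3b*, the de novo DNA methyltransferase (−1.98 ± 0.17), was lower, and *Fgf5* (3.79 ± 0.64) and *Pou3f1* (4.41 ± 0.42) were higher. *Fgf5* rested on 29 Input counts in all and *Pou3f1* on 97. Of the 11 early lineage genes tested, 9 were called higher and 0 lower, but 8 of the 9 fell short of the Input cutoff and were tested through their IP counts, so that this count is no result about the list. The endoderm factor *Sox17* gave 7.53 ± 0.59, from 8 Input and 54 IP counts, and the trophectoderm factor *Cdx2* 5.77 ± 0.50, from 24 and 45. *Eomes* (0.12 ± 0.33) and *T* (−0.47 ± 0.98) did not pass the test. Summed over the 12 listed genes, early lineage RNA took 216 to 266 CPM in IP, while the 10 factors took 1206 to 1391 CPM, so the share of the factors still exceeded that of the lineage genes after pull-down.

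Marker genes of other cells moved both ways. Of 7 fibroblast genes tested, 3 were higher and 3 lower, but 2 of the 7 fell short of the Input cutoff. Of these 2, 1 was called higher. The collagen genes *Col3a1* (−2.24 ± 0.72) and *Col1a2* (−1.83 ± 0.34) were lower, and *Acta2* (2.66 ± 0.26) and *Pdgfra* (4.14 ± 0.39) were higher. Of 6 erythroid genes tested in mESC, 5 were called higher and 0 lower, but all 6 fell short of the Input cutoff, so that nothing is read from this count, with *Gfi1b* at 5.12 ± 0.95, *Tal1* at 4.93 ± 0.76 and *Gata1* at 2.21 ± 0.73. *Klf1* had 1.17 ± 0.85 and did not pass. The mean Input level of the fibroblast and erythroid genes named here was 0.106 to 19.7 CPM.

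Peaks, regions that the authors' caller picked out of the IP reads, were listed separately for each mESC IP library with a strand and no score. The study's methods do not state whether Input served as the background for this calling. A deposited peak on the gene's own strand lay in 1 of the 10 genes, *Tfcp2l1*, against 22.9% of all tested genes and 19.4% of those at the factors' Input levels. With either strand, 4 of the 10 held a peak (*Esrrb*, *Tfcp2l1*, *Tbx3* and *Sall4*), against 41.2% and 45.8%, shares close to that of the factors. There were 6 such peaks in all. None overlapped a peak of another replicate, whereas 26.9% to 31.8% of all peaks of a library overlapped one on the same strand. For its own analysis the study accepted a significant peak only if every biological sample held it. None of these 6 peaks meets that rule. Most of the 6 were recorded on the strand opposite to their gene. This was also frequent across the genome, where 58.8% to 61.3% of peaks in protein-coding genes lay on the opposite strand, so the recorded strand may not be that of the RNA.

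The sequences of the 4 peaks that touch no UTR are shown because they are where the deposited lists placed m5C-IP signal wholly within an intron or coding exon of these genes. Each is given 5′ to 3′ on the strand of its gene, from GRCm38, with every CG dinucleotide in capitals. CG was searched as these letters, and 85.5% to 86.6% of the peaks of each library held at least 1.
Tfcp2l1 intron, replicate 2, chr1:118665305-118665497 (plus): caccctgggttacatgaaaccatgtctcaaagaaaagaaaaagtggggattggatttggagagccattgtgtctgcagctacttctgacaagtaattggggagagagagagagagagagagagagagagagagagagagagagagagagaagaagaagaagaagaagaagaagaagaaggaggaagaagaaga
Tfcp2l1 intron, replicate 3, chr1:118628294-118628444 (plus): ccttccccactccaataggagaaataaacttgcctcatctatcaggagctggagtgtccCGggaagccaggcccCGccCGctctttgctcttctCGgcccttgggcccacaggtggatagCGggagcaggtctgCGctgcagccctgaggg
Tbx3 coding exon, replicate 3, chr5:119680864-119681013 (plus): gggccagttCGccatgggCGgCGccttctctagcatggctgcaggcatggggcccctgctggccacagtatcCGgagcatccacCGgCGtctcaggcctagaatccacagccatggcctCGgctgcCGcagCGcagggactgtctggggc
Sall4 coding exon, replicate 3, chr2:168755693-168755842 (minus): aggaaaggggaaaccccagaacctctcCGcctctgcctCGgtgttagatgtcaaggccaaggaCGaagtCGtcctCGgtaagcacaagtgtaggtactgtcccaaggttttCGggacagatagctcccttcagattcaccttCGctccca

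The *Tfcp2l1* peak of replicate 2, the only one on its gene's strand, ends in a run of GA and GAA repeats. It holds 0 CG and 17 C in 193 bases, and 72.0% of it is repeat-masked. The other *Tfcp2l1* peak, recorded on the minus strand, starts 350 bases into the gene, in an intron, and holds 6 CG and 50 C in 151 bases. The *Tbx3* peak, in a coding exon and also recorded on the minus strand, holds 9 CG and 52 C in 150 bases, with 68.7% GC and no masked base. The *Sall4* peak, in a coding exon and recorded on the plus strand, holds 7 CG and 44 C in 150 bases. The median peak of a library was 50.8% to 51.3% GC and 49.3% to 52.0% masked. The presence of CG in these peaks is thus what most peaks show, and the gene-strand *Tfcp2l1* peak is the one without it. The remaining peaks, in *Esrrb* (chr12:86421888-86422040, minus strand) and *Sall4* (chr2:168765115-168765264, plus strand), overlap annotated coding exon and UTR.

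The next comparison set Input of K562 against Input of mESC, to see how far these genes are silent in a differentiated line. All 9 factors that could be tested were lower in K562 (edgeR over 12932 genes sharing a symbol, with exonic length in the offset), where 49.9% of all tested genes were called lower. In bulk libraries, fewer cells with a transcript and less of it per cell cannot be told apart. *POU5F1*, *NANOG*, *ZFP42* and *TBX3* had 0 counts in all 3 K562 Input libraries. Against a floor of 3 counts per library, their mESC levels per unshared length were at least 721-fold, 1005-fold, 901-fold and 687-fold higher. *SALL4* had 1 count in each library and *PRDM14* 1 count in all. These and the factors at 0 passed the filter only through their mESC counts. That fixes a lower value, so their calls are not read as a result. Per length, mESC exceeded K562 by 1301-fold for *Sall4* (exact 95% interval of counting error 445 to 6309) and 1333-fold for *Prdm14* (239 to 52652).

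*TFCP2L1* and *KLF4* were low in K562 but counted. *TFCP2L1* had 8, 19 and 20 counts and *KLF4* 18, 13 and 14. The log2 difference K562 minus mESC was −8.81 ± 0.06 for *Tfcp2l1* (SE, n = 3 against 3, edgeR adjusted p = 1.77e-55) and −5.55 ± 0.10 for *Klf4* (edgeR adjusted p = 2.49e-38). The counts of both genes were far below those of mESC in every library.

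*ESRRB* was the factor that K562 kept. It had 4713, 4645 and 4086 Input counts, that is 397, 403 and 390 CPM, or 2.08 ± 0.0333 RPKM (SD, n = 3), which placed it at percentile 78.7 of 16893 protein-coding genes with K562 Input counts. It was lower than in mESC by 0.75 ± 0.02 on the log2 scale (edgeR adjusted p = 1.78e-34), while the median of all tested genes was −0.16. Over the alternatives the log2 difference ran from −0.99 to −0.46, the latter with GC correction over the gene span. Per unshared length and without TMM, mESC exceeded K562 by 2.38-fold (exact 95% interval of counting error 2.34 to 2.42). That is a larger difference than in any of these fits. *ESRRB* (chr14:76310712-76501837, GRCh38) spans 191126 bases, of which 3.10% are exonic. The counts do not show whether they come from the exons.

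**Figure D4:**
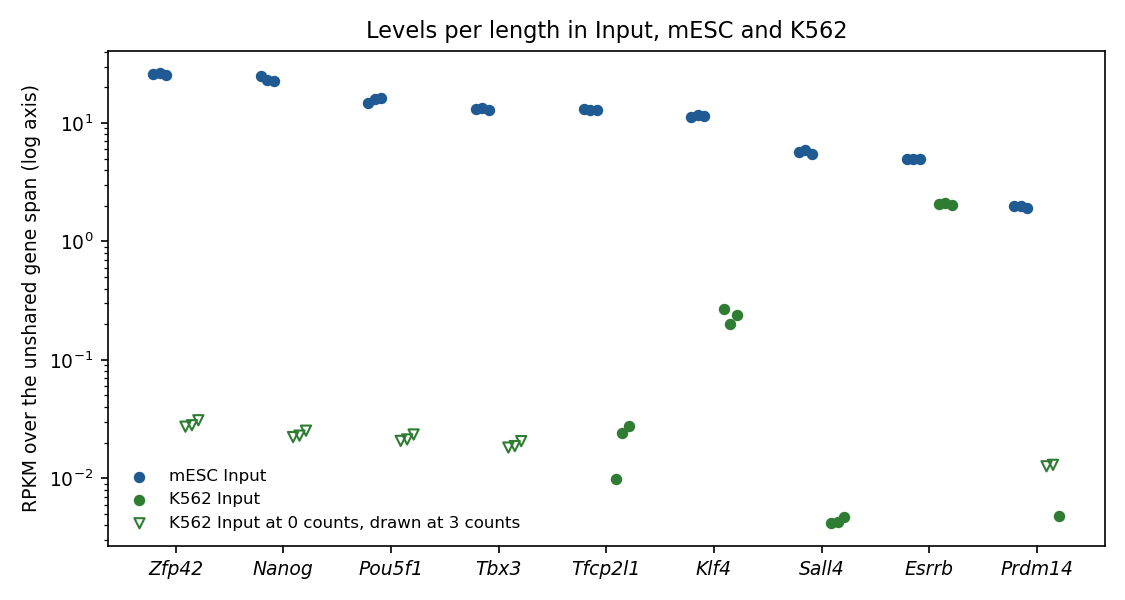
RPKM over the unshared gene span (vertical log axis) in Input of mESC (blue) and K562 (green), for 9 factors in the order of their mESC level. Points are libraries, and open triangles stand for K562 libraries with 0 counts, drawn at the level of 3 counts; the K562 points of ESRRB lie at 2.08 RPKM on average, all below those of mESC, and those of the other factors lie under 1 RPKM.

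Other gene lists gave the frame for this contrast. Of 17 naive network genes tested, 16 were lower and 1 higher in K562, at a median of −7.38. LIF signalling genes split, with 3 higher and 3 lower. Of the 9 erythroid genes with a shared symbol, 9 were higher and 0 lower, at a median of 7.74. Over all 12932 tested genes, 5706 were called higher. The 9 erythroid genes summed to only 2.91 to 3.65 CPM in mESC Input. Genes of any list that passed the filter through 1 line alone had their direction fixed, so these counts are descriptions. K562 Input did hold erythroid RNA, with a summed level of 711 to 720 CPM for 12 erythroid genes. *HBG2* was at 0, and the cause of this was not tested.

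In K562, pull-down could be tested for *ESRRB* alone. It had 25, 26 and 32 IP counts, that is 232, 234 and 344 CPM against 397, 403 and 390 CPM in Input. The groups did not overlap, and the fit gave −0.79 ± 0.15 on the log2 scale (SE, n = 3 against 3, edgeR adjusted p = 8.84e-06). Of all 14522 tested genes, 16.4% were called lower and the median was −0.16. In the highest quintile of K562 Input CPM (from 99.8 CPM), which holds *ESRRB*, 56.4% were called lower and the median was −0.57. A lower call is thus common at its Input level. The call was lost when any single Input library was left out (−0.36 to −0.33, edgeR adjusted p = 0.0784 to 0.113), when Input replicates 1 and 2 were summed as 1 replicate (−0.34, edgeR adjusted p = 0.112) and when Input was thinned to the depth of IP (−0.24, edgeR adjusted p = 0.50). By counting error alone, the IP share was 0.670 of the Input share (exact 95% interval 0.533 to 0.831).

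Of the other factors in K562 IP, *KLF4* had 0, 5 and 0 counts, and *POU5F1*, *ZFP42*, *TFCP2L1*, *PRDM14* and *TBX3* had 1 count each in all. *NANOG*, *SOX2* and *SALL4* had 0. In these libraries 3 counts stand for 27.0 to 32.2 CPM, and none of these genes passed the count filter. Without the filter *KLF4* was called higher in IP (3.02, edgeR adjusted p = 0.00561), as it was without IP replicate 1 (3.90, edgeR adjusted p = 0.000743) or replicate 3 (3.79, edgeR adjusted p = 0.00257), each time on the 5 counts of replicate 2. The depth allows no statement on the other genes.

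The last comparison tested whether IP/Input differed between the lines. For *Esrrb* it was less negative in K562 than in mESC by 0.87 ± 0.21 on the log2 scale (SE, edgeR interaction over 12 libraries, adjusted p = 0.00187). Of 14241 genes, 16.5% were called higher in K562 and the median of all was 0.17. *Esrrb* lay at percentile 66.1 of these values. In the separate fits of each line, the median log2 IP/Input of the highest Input quintile was −1.84 in mESC and −0.57 in K562. A less negative value in K562 is thus no trait of *Esrrb* alone. The direction of the *Esrrb* difference was the same under every alternative run (0.16 to 0.98), but the call was lost with RLE scaling (0.43, adjusted p = 0.109), with either correction for GC content (0.28 and 0.16, adjusted p = 0.32 and 0.601) and without any single Input library (0.34 to 0.39, adjusted p = 0.157 to 0.222). *Klf4*, *Zfp42* and *Tbx3* were called as well, so that 4 of the 9 tested were higher. These calls rest on 5, 1 and 1 K562 IP counts, each in a single library, and on 45, 0 and 0 K562 Input counts.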

How the data were processed

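The m5C-IP and Input libraries of caRNA were analysed from raw read counts per gene, which the authors deposited for 12 libraries, and from 3 lists of mESC peaks. Per the labels and the study's methods, reads were trimmed (Trimmomatic 0.39), aligned with HISAT2 2.1.0 to mm10 or hg38 with spike-ins, split by strand (SAMtools 1.16.1) and, for peaks, cleared of duplicates and called per library with MACS2. For RNA-seq the study names HTSeq and featureCounts, but the counting tool for these libraries was not given in the sources used here. The counts hold no molecular identifiers, so intervals cover counting error only. Records not assigned to a gene, for whatever reason (19.0% to 71.7% of a library), stayed out of library sizes.

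Genes were matched to GENCODE M21 and GENCODE 44 (99.9% and 99.2% of identifiers). The main test was the quasi-likelihood F test of edgeR 4.0.16 (R 4.3.3) with TMM and filterByExpr, over all genes, with Benjamini-Hochberg adjustment at 0.05, and SE was the log2 value divided by the square root of F. Between the lines, genes sharing a symbol were used, with exonic length in the offset for Input and scaling factors computed on length-adjusted counts. All 10 factors were named, and for other lists the 2 highest and 2 lowest log2 IP/Input values, except for an item not reported here. Members and lists were chosen with earlier results of these data known, so list counts are descriptions. Scripts were tested on simulated data. The main test did not pair IP and Input libraries by replicate number. Opposite-strand genes share exon bases with *Pou5f1*, *Tbx3* and *Sall4*, and how strand was counted was not stated.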

Additional observations from a re-analysis of the deposited data

Results flagged for a closer look

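IP/Input of 4 factors differed between K562 and mESC by the interaction test. For *Esrrb*, counted in all 12 libraries, the log2 difference was 0.87, at percentile 66.1 of all tested genes. For *Klf4* it was 4.32, with 0, 5 and 0 K562 IP counts, a K562 IP share 12.1 times the Input share (exact 95% interval 3.73 to 30.3), and it turned to −5.79 without K562 IP replicate 2, the library that held all 5. For *Zfp42* it was 9.68 and for *Tbx3* 9.53, each on 1 K562 IP count and 0 Input counts, so the fitted values depend on the prior count and bound nothing.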

How the results depend on the processing

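In Input of K562 against mESC, all 9 tested factors kept their direction and call under each of 16 alternatives per gene. For those that passed the filter only through mESC the direction is not read. In mESC IP against Input, 8 to 9 were called when 1 library was left out, 8 with library sizes alone, and 4 with Input thinned to IP depth, where *Prdm14* turned to 0.10 and the other calls were lost for *Nanog*, *Klf4*, *Tfcp2l1* and *Sall4*. In K562, 0 to 2 factors were called with 1 library left out, 2 without the count filter (*KLF4* added), 0 with thinned Input and 0 with Input replicates 1 and 2 summed. DESeq2 called 8 factors for the difference between lines, and 6183 of all 14241 tested genes against 4407 in the main fit. With 1 library left out 1 to 6 factors were called for this difference, and 1 with thinned Input. There *Sall4* turned from −1.65 to 5.10 (DESeq2) and 0.76 (thinned), and with 1 library left out *Prdm14* ran from −0.999 to 8.30, *Klf4* from −5.79 to 4.95 and *Tfcp2l1* from −6.16 to 2.45, all on 5 or fewer K562 IP counts. Peaks lay in 4 factors with either strand, in 1 with either strand in at least 2 replicates (*Tfcp2l1*, at different positions), in 0 on the gene strand in at least 2 or in all 3 replicates, and in 0 to 1 with a replicate left out. A stricter peak score was not run, since the lists hold none. The cause of these changes was not tested, except that leaving out an mESC Input library left 12280 to 12292 of 20244 genes past the filter, with 9236 to 9251 called instead of 16590.

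Genes called over the whole table were 6164 in mESC with thinned Input. In K562 they were 8237 without the filter, 535 with thinned Input, 1095 with summed Input replicates and 1090 to 1174 without an Input library, against 4576, and 1828 in the joint fit with thinned Input, against 4407. With the replicate number as a block, 9 factors were called in Input, 9 in mESC IP, 1 in K562 IP and 6 for the difference between lines. *Pou5f1* and *Prdm14* joined the last count. Deviations of IP and Input libraries correlated at −0.0093 to 0.0366 for the same number and −0.026 to 0.009 for different numbers. Values so small cannot show whether the numbers pair the samples. GC correction over the gene span, the unshared span as length, summed replicates and peaks on either strand in at least 2 replicates were chosen after seeing the data.

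IP depth limited the factors: 3 counts stood for 5.06 to 6.34 CPM in mESC IP, and *Pou5f1*, *Prdm14* and *Klf4* rested on 35, 31 and 66 IP counts in all.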

Other observations

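The neighbours *Sox2ot* and *Tbx3os1* gave other values than the factors. Other genes sharing exon bases on the opposite strand had too few IP counts to be read. *Gm19553* at *Pou5f1* had 0, 0 and 0, and *Gm14261* at *Sall4* had 0, 1 and 6. *Sox2ot*, the noncoding gene around *Sox2*, had 1906, 2373 and 2380 Input counts and 84, 100 and 92 IP counts in mESC, at 0.31 ± 0.13 on the log2 IP/Input scale (SE, edgeR adjusted p = 0.0343). *Tbx3os1*, antisense to *Tbx3* and sharing 115 exon bases with it, had 1180, 1193 and 1276 Input counts and 83, 55 and 63 IP counts, at 0.72 ± 0.19 (edgeR adjusted p = 0.00212). Both values were above those of all 9 factors. With GC correction they were −0.15 and −0.02 (edgeR adjusted p = 0.239 and 0.931), and without the count filter −0.13 and 0.27 (edgeR adjusted p = 0.371 and 0.111). These settings lowered the factors as well. The highest of them, *Tfcp2l1*, was at −2.17 with GC correction, where the median of all tested genes was −0.82, and at −1.91 without the filter. The call of *Sox2ot* was also lost with the replicate number as a block (edgeR adjusted p = 0.179) and without IP replicate 1 or 2 (edgeR adjusted p = 0.0947 and 0.0557), while without an Input library it was 0.97 to 1.03 (edgeR adjusted p = 0.000672 to 0.000932). In K562, *SOX2-OT* had 118, 131 and 107 Input counts.

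Near copies of the factors took few counts. *Zfp42-ps1*, a pseudogene of *Zfp42*, had 235, 268 and 310 Input counts and 2, 2 and 1 IP counts. Its log2 IP/Input was −2.44 ± 0.52 (SE, edgeR adjusted p = 0.000405). *Nanog-ps1* had 0, 6 and 2 Input counts. In K562, copies such as *NANOGP1*, *NANOGP8* and *KLF4P1* had 0 to 2 counts in each library.

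The 5 protein-coding genes whose 6 mESC values of log2(RPKM + 1) lay nearest to the median of the 9 factors were *Kat6b*, *Tra2a*, *Agrn*, *Nasp* and *Pa2g4*, at Euclidean distances of 0.169 to 0.307 among 21437 candidates. The nearest factor, *Tbx3*, lay at 0.564 and the farthest, *Prdm14*, at 5.03.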
